A study of Homo sapiens with 4 samples.

Results

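The SLC25 genes encode the mitochondrial carriers, the nuclear-encoded proteins that move metabolites across the inner mitochondrial membrane. They were taken here as the protein-coding genes whose symbol starts with SLC25A, 48 in all, and 40 of these reached 1 FPKM (sequenced fragments relative to transcript length and library size) or more in at least one of 4 libraries, among 12703 nuclear protein-coding genes that did so. RNA came from WI-38, an established line of human lung fibroblasts that divides a limited number of times. The groups were young whole cells and young mitoplasts, both at population doubling level 21, and senescent whole cells and senescent mitoplasts, both at level 60, with no drug or genetic change named and 1 library in each group. A mitoplast is a mitochondrion whose outer membrane has been opened; the preparation was treated with RNase A, which removes RNA that membranes do not protect. No difference below has a replicate check, so no test, standard error or p-value is given, and a difference between 2 libraries cannot be told apart from a difference between conditions. In such bulk samples fewer cells that express a gene and less of its RNA per cell cannot be told apart either.

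A typical carrier is a small protein built from repeats of a pair of membrane helices, each repeat carrying a signature with a conserved proline and charged residues. Most sit in the inner membrane and exchange one compound for another: ADP for ATP, phosphate with protons, citrate for malate, aspartate for glutamate. They are made on cytosolic ribosomes and inserted into the inner membrane by small chaperones of the intermembrane space and the TIM22 complex. Through these exchanges carriers link respiration, amino acid metabolism, lipid synthesis and iron handling in mitochondria to the cytosol.

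Several carriers are close copies of each other, which bears on how far their values can be kept apart. The first 120 coding bases of the 3 ADP/ATP carriers expressed here are shown from GENCODE release 29 transcripts (build GRCh38), with capitals where SLC25A4 and SLC25A6 differ from SLC25A5, at 24 and 22 positions. Bases 82 to 99, counted from the start codon, encode the first signature in each.
SLC25A5 (X, plus strand): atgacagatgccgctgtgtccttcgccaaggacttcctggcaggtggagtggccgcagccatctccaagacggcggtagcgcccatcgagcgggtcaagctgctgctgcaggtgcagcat
SLC25A4 (4, plus strand): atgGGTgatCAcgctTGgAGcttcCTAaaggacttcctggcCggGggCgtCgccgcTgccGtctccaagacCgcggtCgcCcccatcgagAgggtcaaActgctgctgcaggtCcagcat
SLC25A6 (X, minus strand): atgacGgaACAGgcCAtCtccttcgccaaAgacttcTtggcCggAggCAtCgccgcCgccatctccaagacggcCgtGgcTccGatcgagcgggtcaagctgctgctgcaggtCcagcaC
The whole coding sequences, 894 bases each, were 77.2% identical between SLC25A4 and SLC25A5, 77.9% between SLC25A4 and SLC25A6 and 78.7% between SLC25A5 and SLC25A6, and the longest stretch without a difference was 29 bases. SLC25A51 and SLC25A52, both carriers of NAD, were 97.6% identical over 891 bases, with a stretch of 169 bases without a difference. They are shown from base 1 of SLC25A51 and base 31 of SLC25A52, with capitals at the 3 differing positions.
SLC25A51 (9, minus strand): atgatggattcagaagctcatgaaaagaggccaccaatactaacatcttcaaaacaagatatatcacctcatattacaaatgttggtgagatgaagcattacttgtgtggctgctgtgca
SLC25A52 (18, minus strand): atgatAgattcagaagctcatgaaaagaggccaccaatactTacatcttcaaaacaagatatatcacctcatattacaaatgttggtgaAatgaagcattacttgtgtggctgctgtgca
SLC25A51 was listed at 0 in every library. In 3 libraries its locus in the files also holds at least 1 other gene. Transcripts of that locus without an Ensembl name summed to 18.7, 9.65 and 8.68 FPKM there (young whole cells, senescent whole cells, young mitoplast). Whether they cover SLC25A51 was not tested. SLC25A52 had 0.239 FPKM in young cells and a 0 elsewhere. SLC25A5 has 9 pseudogenes in the files that are 83.6% to 94.4% identical to its coding sequence, and 0 of them reached 1 FPKM. Of 42 SLC25A pseudogenes, 1 did, SLC25A39P1, at 1.67 FPKM in young cells, 1.82 in senescent cells and 3.28 in senescent mitoplasts, with a 0 in young mitoplasts.

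As to the libraries as a whole, the 8 fibroblast markers all reached 1 FPKM in whole cells, with 7 in young and 6 in senescent mitoplasts. In the senescent mitoplasts VIM and S100A4 were listed at 0. In young cells VIM stood at 3262.5 FPKM with 4312 on the mitoplast side, and COL1A1 at 1501 with 424. The 7 fibroblast markers compared between the young fractions had a median log2 ratio of −1.44. Values were found for 3 of the 4 endothelial markers, without PECAM1. Of 6 blood and immune, 6 striated muscle and these 3 endothelial markers at most 1 of each list reached 1 FPKM in any library. These were PTPRC at 12.4 FPKM in young mitoplasts, and VWF at 23.3 and CKM at 1.73 in senescent mitoplasts; PTPRC and VWF had no coding transcript above 0 there. Their part in the results below was not tested. Of 6 epithelial markers 2 to 4 reached it, with summed FPKM of 22.7 to 26.6, led by KRT18. All 13 mitochondrial-encoded mRNAs were above 0 in both young libraries and higher in mitoplasts by a median log2 ratio of 1.89, whereas 11 and 12 of them were listed at 0 in senescent whole cells and senescent mitoplasts. An exact 0 in such files can be a failed estimate. Genes listed at 0 are therefore named as such and given no ratio.

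By mean FPKM over the 4 libraries 2 carriers stood highest, SLC25A3, the phosphate carrier (112.5), and SLC25A6, an ADP/ATP carrier (96.3). In senescent cells SLC25A26 was the highest, at 110.1 FPKM, and in senescent mitoplasts SLC25A44, at 55.0. Together SLC25A3 and SLC25A6 held 31.0% of the summed FPKM of the 40 members in young cells, 19.3% in senescent cells, 64.0% in young mitoplasts and 26.2% in senescent mitoplasts. The members as a set summed to 794, 688, 630.5 and 202 FPKM in the same order, which was 0.145%, 0.152%, 0.149% and 0.0934% of the FPKM of all nuclear protein-coding genes. The median member was at 5.86, 4.98 and 3.15 FPKM in the first 3 libraries and was listed at 0 in senescent mitoplasts, where 21 of 40 members had no estimate above 0. In young cells, senescent cells and young mitoplasts 2, 3 and 7 members were listed at 0. Of the 12703 coding genes 13.6%, 14.1% and 15.5% were listed at 0 in these libraries and 38.7% in senescent mitoplasts. Of the 13 members that reached 10 FPKM in young cells, 0 had a 0 in senescent cells (3.66% of coding genes at that level did) and 5 in senescent mitoplasts (SLC25A11, SLC25A12, SLC25A26, SLC25A28 and SLC25A46; 23.9% did). Of the 14 that reached it in senescent cells, 0 had a 0 in young cells (3.12% did), 4 in young mitoplasts (8.11% did) and 4 in senescent mitoplasts (21.3% did). Of the 10 in young mitoplasts, 0 had a 0 in young or senescent cells (6.98% and 7.45% did). At the edge of the 1 FPKM limit, SLC25A2, SLC25A35 and SLC25A22 had highest values of 1.02, 1.09 and 1.38 FPKM, and just outside it SLC25A18, SLC25A41 and SLC25A52 reached 0.415, 0.308 and 0.239. The remaining genes left out were SLC25A31, the testis ADP/ATP carrier, at 0.178 at most, SLC25A47 at 0.0237, and SLC25A29, SLC25A34 and SLC25A51, listed at 0 throughout.

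**Figure D1:**
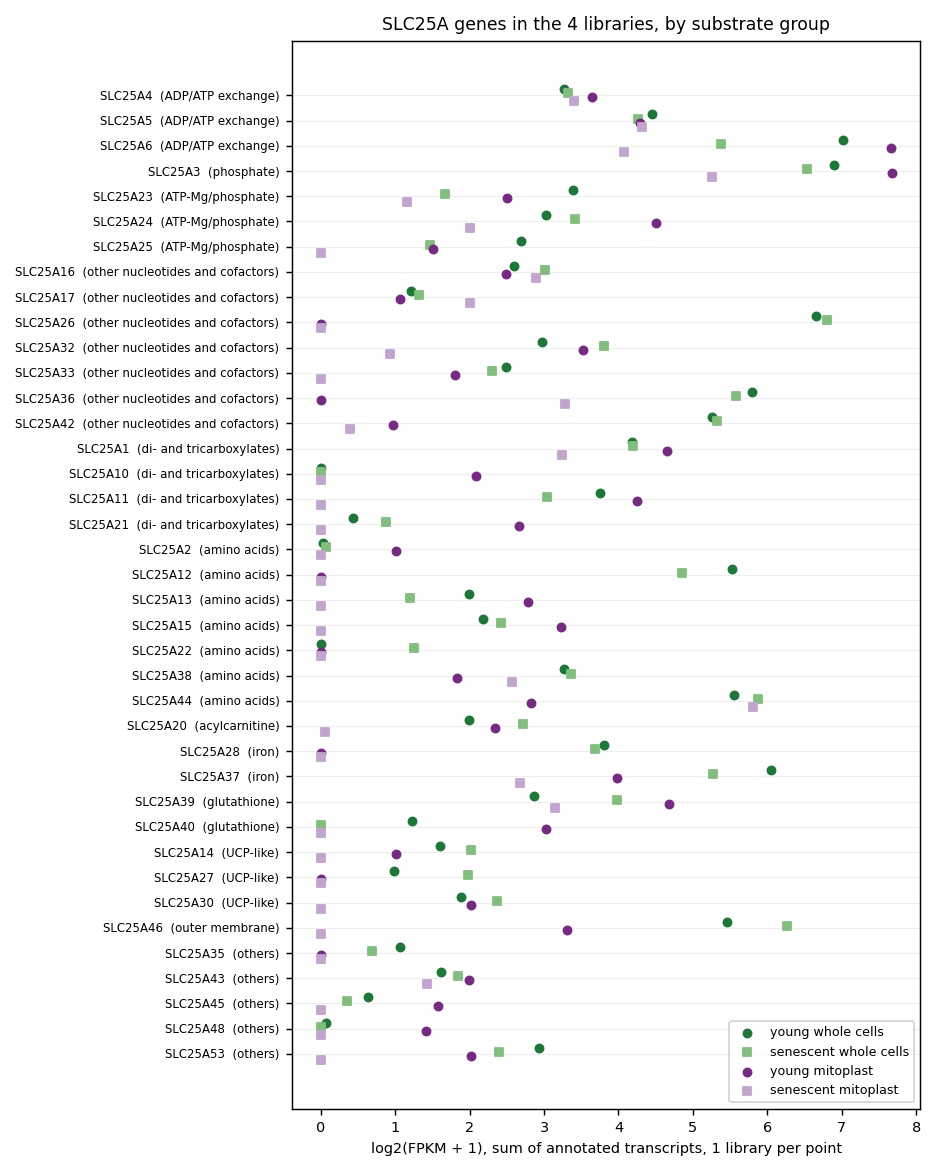
Levels of 39 of the 40 SLC25A members in the 4 libraries, as log2(FPKM + 1) of the summed annotated transcripts, grouped by the compound carried; each point is 1 library. SLC25A3 and SLC25A6 in the young mitoplast library lie furthest right, at 203 and 201 FPKM, and most points at 0 are from the senescent mitoplast library.

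A gene's FPKM is the sum of its annotated transcripts, and in several members most of it lay outside transcripts typed protein coding. Coding transcripts held 58.0% of the members' FPKM in young cells, 46.7% in senescent cells, 89.3% in young mitoplasts and 51.6% in senescent mitoplasts. Over all coding genes the shares were 63.9%, 64.2%, 65.5% and 40.9%. In 9 of the 40 members coding transcripts stayed under 1 FPKM in all 4 libraries (SLC25A12, SLC25A14, SLC25A16, SLC25A17, SLC25A26, SLC25A43, SLC25A45, SLC25A48 and SLC25A53), beside 12.7% of the 12703 coding genes. The clearest case was SLC25A26, the carrier of S-adenosylmethionine, at 99.2 FPKM in young and 110.1 in senescent whole cells. All of that lay in ENST00000484768, a processed transcript of 375 nt and 6 exons, and the gene was listed at 0 in both mitoplast libraries. SLC25A44, a carrier of branched-chain amino acids, stood at 45.9 (young cells), 57.9 (senescent cells), 6.10 (young mitoplasts) and 55.0 FPKM (senescent mitoplasts). Its 271 nt processed transcript ENST00000468973 held 92.4%, 95.4% and 96.6% of the values in the first 2 and the last, and was not the leading transcript in young mitoplasts, where coding transcripts held all 6.10. The SLC25A44 transcript is printed because the level of the gene rests on it; it is in lower case throughout, since 0 of its bases lie outside the gene's coding sequence.
SLC25A44 (chr1:156200390-156210427, plus strand, GRCh38, 2 exons): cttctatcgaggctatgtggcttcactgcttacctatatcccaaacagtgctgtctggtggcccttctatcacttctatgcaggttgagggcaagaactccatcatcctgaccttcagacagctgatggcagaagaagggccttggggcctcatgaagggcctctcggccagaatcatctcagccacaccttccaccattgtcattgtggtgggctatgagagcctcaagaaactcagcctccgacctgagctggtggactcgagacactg
Coding sequence that longer mRNAs also carry thus makes up all of this transcript, and 85.1% of the SLC25A26 one; how reads were shared between transcripts was not tested. Transcripts under 600 nt led 9 members in each whole cell library, 5 in young and 6 in senescent mitoplasts. SLC25A3 was led by a 556 nt coding transcript in both young libraries, with 72.5 FPKM among whole cells and 113.8 among mitoplasts, and by one of 1351 nt in both senescent libraries, at 48.4 and 23.3. SLC25A36, a pyrimidine nucleotide carrier, was led in whole cells by a 578 nt coding transcript, at 48.2 FPKM (young) and 42.4 (senescent).

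**Figure D2:**
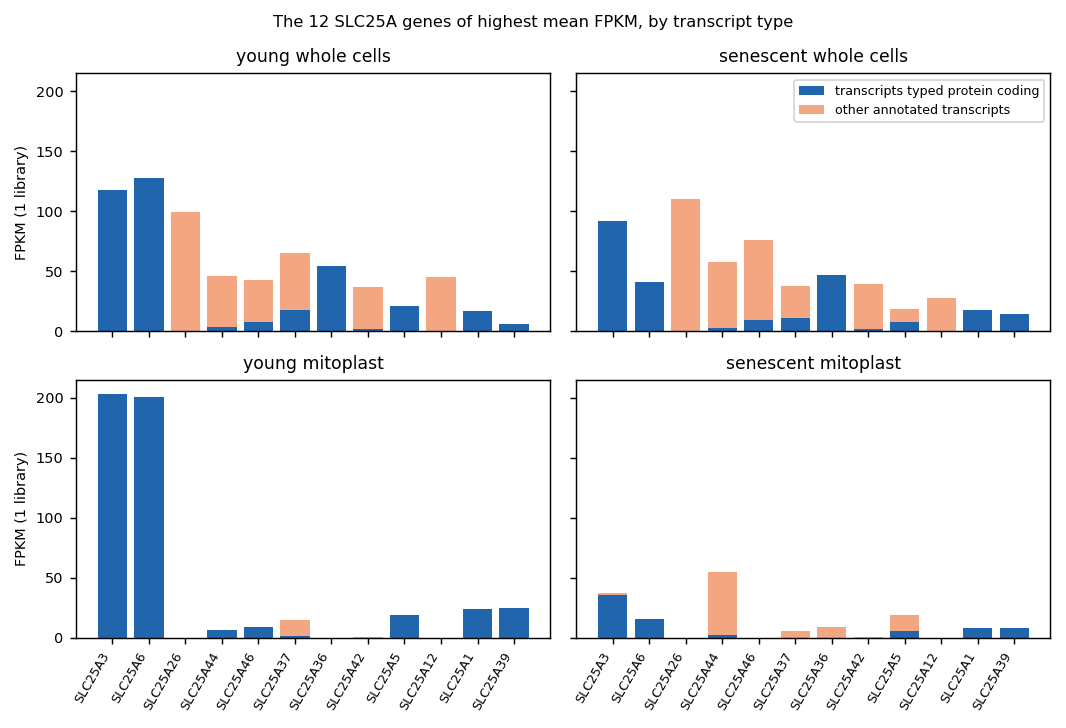
FPKM of the 12 members of highest mean level in each library (1 library per panel), split into transcripts typed protein coding and other annotated transcripts. SLC25A3 and SLC25A6 are coding almost throughout, whereas SLC25A26, SLC25A44, SLC25A46, SLC25A37, SLC25A42 and SLC25A12 in whole cells are mostly not.

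Senescent whole cells were next set against young whole cells, to ask which carriers differ with replicative senescence. Ratios are log2((A + 1)/(B + 1)) of FPKM, with 1 or more, or −1 or less, taken as past the limit; they understate differences of low genes. Most carriers differed little: of 33 members compared, 1 was higher (10.6% of 9622 coding genes were), 3 were lower (18.8% were) and 29 were neither. Their median was 0.052, against −0.21 over all coding genes, and 21 of 33 stood above that value. With coding transcripts alone the medians were −0.11 and −0.17, and with assembled transcripts −0.22 and −0.21, so that the gap was not kept under either. Among members SLC25A6 had the widest gap in FPKM, and SLC25A39, a carrier of glutathione, was the 1 that was higher. SLC25A40 was listed at 0 in the senescent library (5.41% of coding genes were) and SLC25A22 in the young one (4.93% were). With each library scaled by the median of ratios the counts were 2 higher (12.8% of coding genes were) and 2 lower (13.7% were).

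By role, the 3 ADP/ATP carriers had unequal ratios. SLC25A6 stood at 128 FPKM in young cells and at 40.7 in senescent ones (log2 ratio −1.63), all in its coding transcript of 2062 nt. Assembled transcripts in its locus, without an Ensembl name, summed to 666 FPKM in young cells and to 0 in the other libraries, and counting them gave −4.25. SLC25A5 was at 20.9 and 18.2 FPKM (−0.19, or 0.016 by the median of ratios), but its coding transcript alone was at 20.9 and 7.26 (−1.40), since 60.2% of the senescent value lay in a 483 nt processed transcript. SLC25A4, the form best known from heart and muscle, was at 8.64 and 8.99 FPKM (0.052), all in a coding transcript of 4440 nt. Over all annotated transcripts the 3 thus ranked SLC25A6, SLC25A5, SLC25A4 in both whole cell libraries, with a narrower spread in the senescent one. In coding transcripts alone SLC25A4, at 8.99 FPKM, stood above SLC25A5, at 7.26, in senescent cells. SLC25A3 was at 118 and 91.8 FPKM (−0.36), which turned to 0.086 without transcripts under 600 nt.

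The calcium-regulated carriers of ATP-Mg and phosphate were split. SLC25A23 stood at 9.49 FPKM in young cells and at 2.19 in senescent ones (−1.72), the lowest ratio of the family, and SLC25A25 at 5.46 and 1.77 (−1.22, or −0.97 by the median of ratios). In young cells 75.6% of SLC25A23 lay in a coding transcript of 834 nt, whereas in senescent cells all of it lay in one of 3425 nt. SLC25A24 was at 7.15 and 9.67 (0.39). Both members past the limit were coding throughout.

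Carriers of amino acids and of di- and tricarboxylates lay between the limits wherever a ratio could be given. SLC25A1, which exports citrate for lipid synthesis, was at 17.2 FPKM in both libraries. SLC25A11, the oxoglutarate carrier of the malate-aspartate shuttle, was at 12.5 and 7.23 (−0.71), and SLC25A13, its aspartate/glutamate partner, at 2.98 and 1.30 (−0.79). SLC25A12, the other aspartate/glutamate carrier, was at 45.1 and 27.9 (−0.67), all in a 556 nt processed transcript. These 3 genes of the shuttle all stood below 0 on the ratio scale, where 15 of the 33 members compared lay. The median coding gene was itself at −0.21. In coding transcripts alone SLC25A11 passed the limit, at −1.06. SLC25A38, a glycine carrier needed for heme synthesis, was at 8.60 and 9.24, and SLC25A15, the ornithine carrier of the urea cycle, at 3.54 and 4.36 (0.24, or −0.65 without transcripts under 600 nt). SLC25A22, a glutamate carrier, was listed at 0 in young and at 1.38 in senescent whole cells, in annotated transcripts. Assembled transcripts of its locus, however, held 5.39 FPKM in young and 1.597 in senescent whole cells. With them SLC25A22 was lower in senescent than in young whole cells.

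The 5 highest ratios belonged to SLC25A39, SLC25A27, SLC25A32, SLC25A46 and SLC25A20. SLC25A39 stood at 6.26 FPKM in young cells and at 14.7 in senescent ones (1.12), all coding. Assembled transcripts of its locus, however, held a further 11.7 FPKM in young cells alone, and with them the SLC25A39 ratio was −0.27. Its paralog SLC25A40 was at 1.35 and 0. SLC25A20, which carries acylcarnitines for fatty acid oxidation, was at 2.99 and 5.59 (0.72), and at 1.44 and 5.59 in coding transcripts (1.43). SLC25A27, related to the uncoupling proteins, was at 0.979 and 2.94 (0.99), just inside the limit. SLC25A32, which carries folate or FAD, was at 6.85 and 13.0 (0.83), and SLC25A46, an outer membrane protein tied to mitochondrial shape, at 42.8 and 75.9 (0.81). For SLC25A46 a 558 nt processed transcript held 79.5% and 86.1%, and coding transcripts alone were at 7.68 and 8.95 FPKM. Of the iron carriers, SLC25A37 (mitoferrin 1) was at 65.4 and 37.8 FPKM (−0.78), mostly in a 735 nt transcript typed as subject to nonsense-mediated decay, and SLC25A28 (mitoferrin 2) at 13.0 and 11.9 (−0.12). SLC25A42, a coenzyme A carrier, was at 37.1 and 39.2, of which 95.5% and 95.7% lay in a 519 nt retained-intron transcript. SLC25A26, SLC25A36, SLC25A33, SLC25A16 and SLC25A17 stood between −0.22 and 0.43, as did SLC25A14 and SLC25A43, while SLC25A30, SLC25A35 and SLC25A53 were at 0.49, −0.37 and −0.53.

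**Figure D3:**
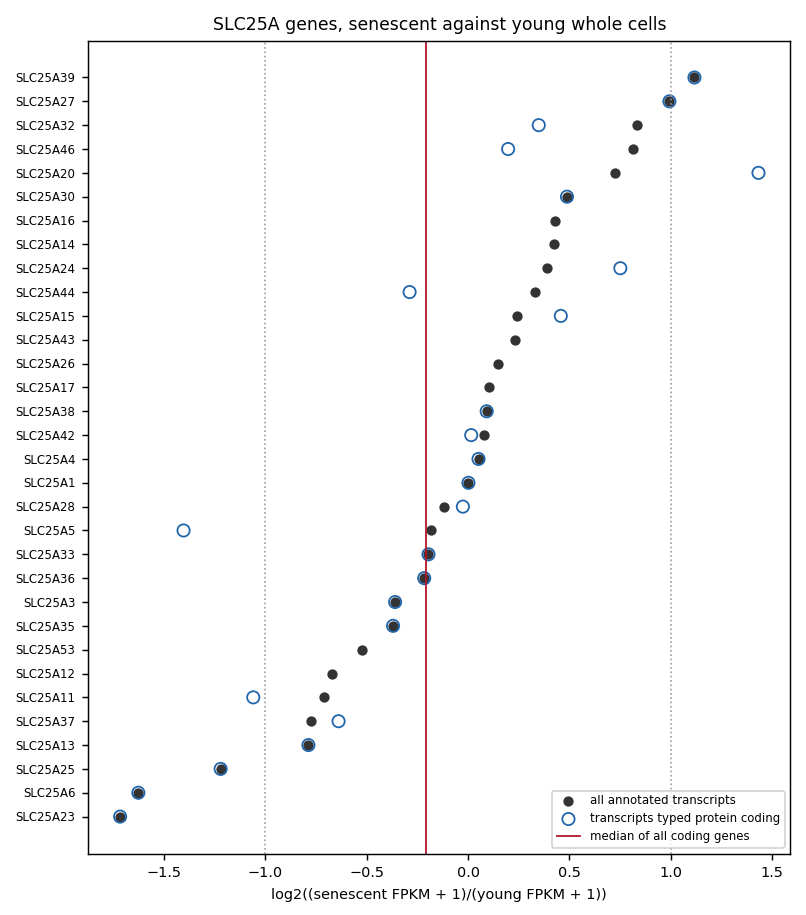
Log2 ratio of senescent to young whole cells for 32 of the 33 members compared (filled points, all annotated transcripts; open circles, coding transcripts alone where both libraries have an estimate above 0), 1 library against 1. Dotted lines mark −1 and 1 and the solid line the median of all coding genes, −0.21; SLC25A23, SLC25A6 and SLC25A25 lie left of −1, SLC25A39 lies right of 1, and the open circles of SLC25A5, SLC25A11 and SLC25A20 cross a limit that their filled points do not.

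The same comparison within mitoplasts gave lower values in the senescent library for most carriers that could be compared. Of 17 members 9 were lower (40.9% of 6604 coding genes were) and 2 higher (20.0% were), with a median of −1.31 against −0.60 over all coding genes. A further 15 members at 1 FPKM or more in young mitoplasts were listed at 0 in the senescent library; over coding genes 32.2% were listed at 0 there on the same rule, and 8.39% in the young library, where SLC25A36 was. The direction of the counts depends on scaling: by the median of ratios 5 members were higher and 5 lower, and the split over all coding genes turned from 20.0% and 40.9% to 33.8% higher and 25.3% lower. On that scale SLC25A6 and SLC25A3 were still lower, at −2.71 and −1.52.

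SLC25A6 had the lowest ratio, at 201 FPKM in young and 15.8 in senescent mitoplasts (−3.58), followed by SLC25A32 at 10.5 and 0.905 (−2.59), SLC25A24 at 21.7 and 3.003 (−2.51) and SLC25A3 at 203 and 37.1 (−2.42). SLC25A20 was at 4.05 and 0.0433, with its coding transcripts listed at 0 in the senescent library. The young and senescent values of SLC25A32 came from a transcript typed as subject to nonsense-mediated decay, and so did the larger part of SLC25A24. SLC25A4, at 11.5 and 9.58 FPKM (−0.24), was the ADP/ATP carrier that differed least in its coding transcript, since SLC25A5, at 18.5 and 18.9 in all, was at 18.5 and 5.48 in coding transcripts (−1.59), and its ratio with assembled transcripts was −1.92. The order of the ADP/ATP carriers was SLC25A6, SLC25A5, SLC25A4 in young mitoplasts, and SLC25A5, SLC25A6, SLC25A4 in senescent ones. The senescent order rests on a 433 nt processed transcript, which held 71% of SLC25A5 there. In coding transcripts alone it was SLC25A6, SLC25A4, SLC25A5, at 15.8, 9.58 and 5.48 FPKM. SLC25A1 was at 24.03 and 8.46 (−1.40), SLC25A39 at 24.6 and 7.84 (−1.53), SLC25A37 at 14.8 and 5.39 (−1.31) and SLC25A23 at 4.66 and 1.24 (−1.34). Of the higher members SLC25A44 stood at 6.10 and 55.0 (2.98), which turned to −1.31 in coding transcripts. SLC25A38, SLC25A17 and SLC25A16 were at 0.74, 0.94 and 0.41. Of members at 10 FPKM or more in young mitoplasts only SLC25A11, at 17.98, was listed at 0 in the senescent library (22.3% of coding genes at that level were); the other 14 members listed at 0 there were at 8.89 or less in the young library.

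Mitoplasts were then compared with whole cells of the same age, which asks which transcripts accompany the fraction that resists RNase. Carrier mRNAs are made in the nucleus and translated in the cytosol. In young cells the median ratio of the carriers was 0.36, against −0.31 over 9348 coding genes, and 21 of 32 members lay above that median. Past the limit were 6 members higher (14.4% of coding genes were) and 7 lower (31.2% were). Scaled by the median of ratios, the members split into 10 higher and 4 lower, and all coding genes into 22.7% and 22.9%.

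The carriers of phosphate and of ADP and ATP lay between the limits. SLC25A3 stood at 118 FPKM with 203 on the mitoplast side (0.78) and SLC25A6 at 128 and 201 (0.65); by the median of ratios both passed the limit, at 1.26 and 1.13. With the assembled transcripts of whole cells counted, SLC25A6 turned to −1.98. SLC25A1 (17.2 and 24.03), SLC25A11 (12.5 and 17.98) and SLC25A4 (8.64 and 11.5) had ratios of 0.46, 0.50 and 0.37. SLC25A5, at 20.9 and 18.5, had −0.16, which turned to 0.76 with assembled transcripts and to 0.30 by the median of ratios. The highest ratio was that of SLC25A21, a carrier of oxoadipate and oxoglutarate, at 0.348 and 5.36 FPKM (2.24). SLC25A39 was at 6.26 and 24.6 (1.82), or 0.44 with assembled transcripts. SLC25A40 was at 1.35 and 7.18 (1.80), although its coding transcripts were at 1.35 and 1.45. SLC25A24, SLC25A48 and SLC25A15 followed at 1.48, 1.35 and 1.04; in coding transcripts SLC25A24 was at 0.39. SLC25A10, the dicarboxylate carrier, was at 3.24 FPKM in young mitoplasts and listed at 0 in the 3 other libraries (9.07% of coding genes at 1 FPKM in either young library were at 0 in whole cells).

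Of the 7 lower members 4 were led by noncoding transcripts in whole cells. SLC25A42 stood at 37.1 FPKM with 0.963 on the mitoplast side (−4.28), SLC25A44 at 45.9 and 6.10 (−2.72), SLC25A46 at 42.8 and 8.89 (−2.15) and SLC25A37 at 65.4 and 14.8 (−2.07). In coding transcripts alone SLC25A44 turned to 0.66 and SLC25A46 to 0.19, while SLC25A37 was at −3.04. SLC25A38 (8.60 and 2.56) and SLC25A25 (5.46 and 1.83) were also lower, at −1.43 and −1.19, and both rest on coding transcripts. A further 5 members were listed at 0 in young mitoplasts (9.92% of coding genes were). Of the 13 members that reached 10 FPKM in young cells these were SLC25A12, SLC25A26, SLC25A28 and SLC25A36, or 30.8%, against 7.49% of coding genes at that level. These zeros are of annotated transcripts. Assembled transcripts at the loci of SLC25A12, SLC25A28 and SLC25A36 summed to 4.47, 6.03 and 2.58 FPKM in young mitoplasts, and at SLC25A26 to 0. SLC25A36 had 54.5 FPKM in young cells, 88.4% of it in the 578 nt coding transcript. SLC25A12 and SLC25A26 rest on noncoding transcripts alone, and SLC25A28 for 49.0%.

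In senescent cells 19 members could be compared between fractions, and 14 more were listed at 0 in the mitoplast library (30.9% of coding genes were, on the same rule), while 0 were in whole cells (8.18% were). Of the 19, 8 were lower (49.5% of 6664 coding genes were) and 1 higher (16.8% were), with a median of −0.83 against −0.98, a gap of 0.15. By the median of ratios 5 were higher and 5 lower, beside 31.8% and 28.2% of coding genes, and the members' median turned to 0.24. SLC25A3 stood at 91.8 FPKM with 37.1 on the mitoplast side (−1.28) and SLC25A6 at 40.7 and 15.8 (−1.31); by the median of ratios they were at −0.11 and −0.17. SLC25A4 was at 8.99 and 9.58 (0.083) and SLC25A5 at 18.2 and 18.9 (0.049). SLC25A42 was lowest, at 39.2 and 0.315 (−4.93), followed by SLC25A32 (−2.88), SLC25A20 (−2.66), SLC25A37 (−2.60) and SLC25A36 (−2.29). In senescent mitoplasts all of these rest on transcripts not typed protein coding, with coding transcripts listed at 0, and SLC25A20 was at 0.0433 FPKM. SLC25A36 lay there in a 598 nt retained-intron transcript, whereas in whole cells the 578 nt coding one led. SLC25A46, at 75.9 FPKM in senescent whole cells, and SLC25A26, at 110.1, were listed at 0 in senescent mitoplasts.

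**Figure D4:**
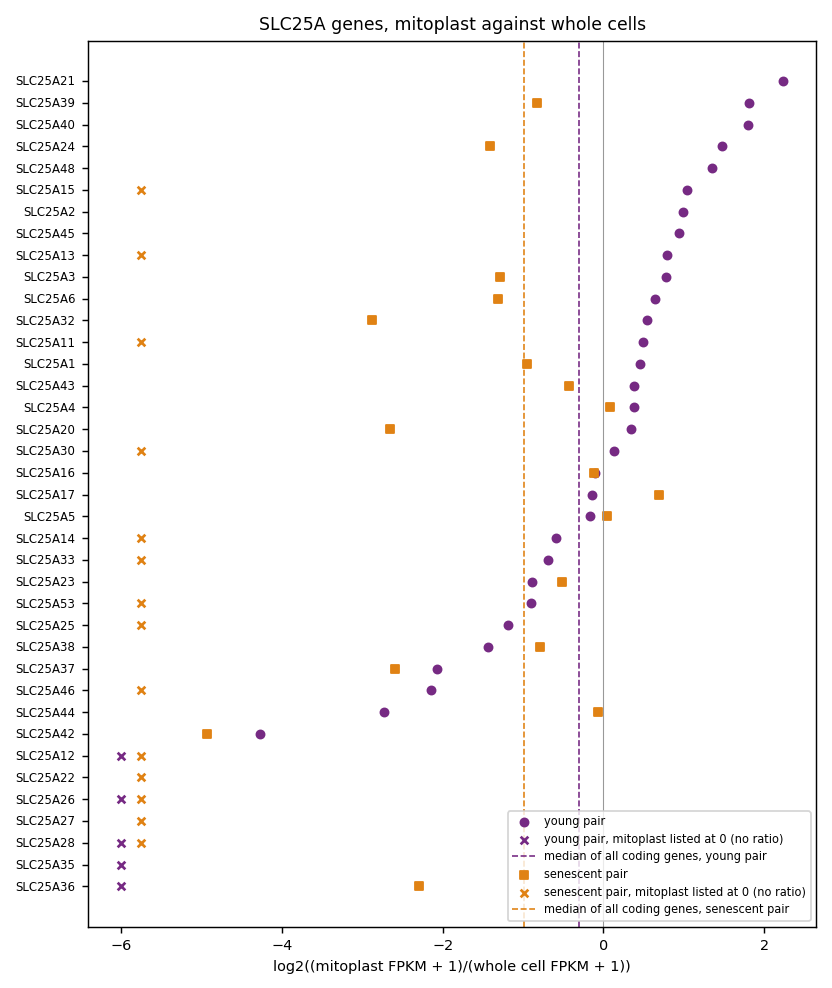
Log2 ratio of mitoplast to whole cell FPKM for the members in young (circles) and senescent cells (squares), 1 library against 1, with dashed lines at the median of all coding genes in each pair, −0.31 and −0.98. Crosses at the left edge mark members listed at 0 in the mitoplast library, which have no ratio and no place on the axis; SLC25A21 is highest in the young pair, and SLC25A42 is lowest in both.

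Genes that work with the carriers were read from a list of 25. Of the family members with other names, MTCH1 and MTCH2, carrier-like proteins of the outer membrane, stood at 44.9 and 31.2 FPKM in young cells, 33.7 and 11.7 in senescent cells, 52.8 and 69.0 in young mitoplasts and 37.2 and 36.8 in senescent mitoplasts. Coding transcripts held 0, 2.36, 11.5 and 0 FPKM of MTCH2 in that order, and 11.9 of MTCH1 in senescent mitoplasts. UCP2, an uncoupling protein, was at 0.663, 2.60, 7.05 and 0 FPKM in that order, and UCP1 and UCP3 stayed under 1 FPKM. Among 10 genes for the import of carriers, 5 could be compared between whole cells, with 0 higher and 1 lower, TIMM10, at 25.3 and 11.5 FPKM. TIMM22, the core of the inner membrane insertase, was at 14.1 and 8.97, and TOMM70, the outer membrane receptor for carriers, at 10.4 and 13.98. Of 3 VDAC genes, the outer membrane channels, 0 passed the limit between whole cells; VDAC1, at 128 and 87.3 FPKM, was near SLC25A3 in level. Of 7 other metabolite transporters, 4 could be compared and 0 passed it; MPC1, a subunit of the pyruvate carrier, was at 5.47 and 8.74. In young cells SFXN1, a serine transporter, stood at 28.4 FPKM with 23.4 on the mitoplast side, and at 28.4 and 7.11 in coding transcripts. MPC2, by contrast, was listed at 0 in both whole cell libraries and at 13.0 FPKM in young mitoplasts.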

How the data were processed

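Each of the 4 deposited files gives FPKM per transcript, computed by the authors, for 393483 transcripts of a merged set, per the file headers. Per the submitters' processing notes, TopHat2 2.0.14, Cufflinks 2.2.1, Cuffdiff and the build hg19 were used, with no role given. Annotation release, strand setting and library normalization: not given in the sources used here. There are no counts, so depth is unknown and counting error cannot be given. Reads of overlapping or antisense genes cannot be told apart; 0 of 7 antisense or other noncoding SLC25A entries reached 1 FPKM.

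An Ensembl name in any library named a row. A gene was found for 94.1% of 185591 annotated transcripts through GENCODE release 29 (GRCh38), used for names, types, lengths and sequences, never to place the files' values. Gene values are sums of annotated transcripts; coding transcripts were also summed apart. Assembled transcripts, 53.7%, 76.2%, 92.7% and 97.3% of the FPKM of young and senescent whole cells and young and senescent mitoplasts, entered only as an alternative. Ratios used a pseudocount of 1 and genes at 1 FPKM or more in one library and above 0 in both (Python 3.11.15, pandas 2.3.3). The calculation was tested on simulated data.

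The members and lists were chosen with earlier results of these data known. One member stands in the family's counts and medians and is not reported here by name. Genes named are the ADP/ATP and phosphate carriers, the 10 highest members, the 5 highest and 5 lowest ratios per comparison, members listed at 0 in one library and at 10 FPKM or more in another, and members of each substrate group by role. Alternatives were another pseudocount, no filter, 3 other sums of transcripts, another scaling and, added after seeing the data, ratios for zeros.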

Additional observations from a re-analysis of the deposited data

Results flagged for a closer look

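Carriers past the limit in opposite directions in 2 parallel comparisons, each of 1 library against 1, were set apart; the difference itself was not tested. SLC25A39 had a log2 ratio of senescent to young of 1.12 in whole cells and −1.53 in mitoplasts. With assembled transcripts its whole cell ratio was −0.27, so that both were below 0, and by the median of ratios its mitoplast ratio was −0.69. SLC25A24 had a ratio of mitoplast to whole cells of 1.48 in young and −1.41 in senescent cells, and its mitoplast values were led by a transcript typed as subject to nonsense-mediated decay in both libraries. In coding transcripts alone its young ratio was 0.39 and it was listed at 0 in senescent mitoplasts; by the median of ratios its senescent ratio was −0.43.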

How the results depend on the processing

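No paired analysis was possible because each group holds 1 library. For the counts and medians of the 4 comparisons, 44 of 84 values under the alternatives stayed near those reported, and the others follow; the cause was not tested. With a pseudocount of 0.1, 2 members were higher (13.6% of coding genes were) and 5 lower (22.8% were) between whole cells. The mitoplast senescence median was −1.44 (all coding genes −0.70). Without a filter that median was −0.94 (all coding genes −0.52). With coding transcripts alone, 2 members were higher (10.4% of coding genes were) and 5 lower (17.8% were) between whole cells, with a median of −0.11 (all coding genes −0.17). Between mitoplasts 1 was higher (15% were). In the young fraction comparison 4 were lower (29% were), and in the senescent one 2 (median −0.65). For the latter the share of coding genes is not given here (49.5% lower with all annotated transcripts). SLC25A44 turned to −1.31 between mitoplasts and, in the young fractions, SLC25A44 to 0.66 and SLC25A46 to 0.19. With assembled transcripts, 0 members were higher between whole cells (9.82% of coding genes were), with a median of −0.22 (all coding genes −0.21) and SLC25A39 at −0.27. The median between mitoplasts was −0.95 (all coding genes −0.64). In the young fractions 12 were lower (32.3% of coding genes were), with a median of 0.073 (all coding genes −0.39). Without transcripts under 600 nt, 0 were higher between mitoplasts (14.3% of coding genes were). In the young fractions 3 were lower (28.6% were), with a median of 0.24 (all coding genes −0.35). In the senescent fractions 0 were higher and 4 lower (median −0.65). For these the shares of coding genes are not given here (16.8% higher and 49.5% lower with all annotated transcripts). Without these short transcripts SLC25A44 was again at −1.31 and 0.66 and SLC25A46 at 0.021. With median-of-ratios scaling, 2 were higher between whole cells (median 0.22), 5 higher and 5 lower between mitoplasts (−0.50), 10 higher and 4 lower in the young fractions (0.67), and 5 and 5 in the senescent ones (0.24). The shares of all coding genes on that scale are given above. With zeros given a ratio, 2 were higher between whole cells (14.5% of coding genes were), 24 lower between mitoplasts (−1.53), 12 lower in the young fractions (0.017) and 22 in the senescent ones (−1.47). On that rule 56.5%, 35.2% and 61.0% of all coding genes were lower in the last 3 comparisons, with medians of −1.25, −0.33 and −1.44. Over the 39 members reported by name, 634 ratios were recomputed. Of these, 35 had the opposite sign, 7 of them (given above) where the reported ratio was past the limit and 28 where it lay between the limits. A further 15 lost their place past the limit, 28 gained one and 556 kept sign and side. Dropping the filter and giving zeros a ratio change only which genes enter. The recomputed ratios under those alternatives equal the reported ones by construction, so they add to the count kept without being a check.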
